A study of Homo sapiens with 16 samples.

Results

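The genes described here are the zinc finger genes of human chromosome 19 that were read in K562 cells, a line from a human chronic myeloid leukaemia, during treatment with 25 nM phorbol 12-myristate 13-acetate (PMA), an activator of protein kinase C that drives these cells towards a megakaryocyte-like state. A gene was included if it was protein-coding, lay on chromosome 19, had a symbol starting with ZNF and had a mean of at least 10 estimated reads per library. Of 250 such genes at any level, 239 met the minimum and 11 did not, out of 35052 genes in the tables. The study sampled wild-type cells at 0 h, 0.5 h, 1.5 h, 3 h, 6 h, 24 h, 48 h and 72 h of PMA, with 2 libraries for each of the 8 time points and 16 in all. The 0 h cells are the reference of each comparison with untreated cells, and no vehicle-only series was used here. The medium was renewed after 24 h and after 48 h, so later time points differ from earlier ones in that respect too. Nothing in the labels says whether the libraries of a time point came from separate cultures, so p-values measure the spread between libraries.

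Most zinc finger proteins of chromosome 19 carry tandem C2H2 fingers, each of which contacts a few bases of DNA, and many carry an N-terminal Krüppel-associated box (KRAB). The A part of the box binds TRIM28 (KAP1), which brings the histone H3 lysine 9 methyltransferase SETDB1 and heterochromatin protein 1 to the bound site. Many KRAB zinc finger proteins are known for silencing transposable elements, and their genes arose by tandem duplication, so that neighbours are often close relatives.

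A stretch resembling KRAB-A was found in the translated product of 207 of the 239 genes, was absent from 31, and could not be scored in ZNF625-ZNF20, which had no complete translation. The score was the number of identities to a 40-residue KRAB-A consensus, and it separated the genes widely, at 16 or more with the stretch and at most 9 without it. The genes had a median of 12 fingers, from 0 in ZNF738 and in the readthrough ZNF816-ZNF321P to 31 in ZNF91 and 36 in ZNF208. Genes with the KRAB-A-like stretch had a median of 13 fingers and those without had 9. The median level was 7.95 TPM (a scale that corrects for length), between 0.264 and 102 TPM. At the edge of the read minimum, ZNF575, ZNF256 and ZNF233 were inside with means of 11.9, 15.5 and 15.99 reads, and ZNF560, ZNF135 and ZNF723 were outside with 9.5, 9.25 and 7.19 reads. Related genes share sequence: a median of 8.56% of a gene's 31-base words also occurred in transcripts of other genes, and in 13 genes over 50% did, so reads of these 13 may have been divided uncertainly. Another protein-coding gene overlapped 95 of the 239.

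The promoters of 4 genes on which the results turn are printed as the 250 bases upstream of the RefSeq start (GRCh38.p14), in lower case, with the matches to 6 searched motifs in capitals. ZNF792 (chr19:34964230-34964479, minus strand) fell furthest and recovered, ZNF699 (chr19:9309839-9310088, minus strand) rose furthest, ZNF175 (chr19:51571033-51571282, plus strand) fell and then rose, and ZNF121 (chr19:9584505-9584754, minus strand) was among the most abundant.
ZNF792: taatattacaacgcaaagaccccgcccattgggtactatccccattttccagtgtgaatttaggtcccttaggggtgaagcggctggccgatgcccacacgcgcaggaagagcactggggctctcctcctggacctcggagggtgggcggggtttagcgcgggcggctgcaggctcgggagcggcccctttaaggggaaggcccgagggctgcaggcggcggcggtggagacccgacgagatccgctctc
ZNF699: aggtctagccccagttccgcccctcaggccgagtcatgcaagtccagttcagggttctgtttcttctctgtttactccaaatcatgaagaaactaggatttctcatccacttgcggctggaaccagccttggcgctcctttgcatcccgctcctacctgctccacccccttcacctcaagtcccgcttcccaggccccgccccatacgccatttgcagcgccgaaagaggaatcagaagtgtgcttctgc
ZNF175: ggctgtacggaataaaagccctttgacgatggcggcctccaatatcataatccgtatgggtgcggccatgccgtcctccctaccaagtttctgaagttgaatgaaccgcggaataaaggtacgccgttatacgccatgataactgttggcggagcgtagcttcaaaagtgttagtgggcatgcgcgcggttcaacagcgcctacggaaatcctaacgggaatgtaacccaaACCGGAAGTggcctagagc
ZNF121: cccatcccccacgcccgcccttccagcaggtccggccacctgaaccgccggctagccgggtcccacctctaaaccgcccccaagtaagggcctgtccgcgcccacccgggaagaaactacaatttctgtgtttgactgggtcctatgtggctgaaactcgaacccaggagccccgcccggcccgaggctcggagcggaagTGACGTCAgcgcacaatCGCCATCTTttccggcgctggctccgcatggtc
The motifs were searched on both strands and can overlap. They were TGANTCA, bound by AP-1, TGACGTCA, the cAMP response element, GCGTGGGCG and GCGGGGGCG, bound by EGR1, ACCGGAAGT, bound by ETS factors, and AAGATGGCG, bound by YY1. A promoter entry matched 211 of the 239 genes. TGANTCA was present in 13 of the 211 (6.16%) and in 6.57% of all 35116 promoters of the same length. TGACGTCA was present in 5 (2.37%, against 1.65% of all promoters), and GCGTGGGCG in 3 (1.42%, against 0.72%). GCGGGGGCG was present in 5 (2.37%, against 4.72%), ACCGGAAGT in 6 (2.84%, against 0.814%) and AAGATGGCG in 6 (2.84%, against 0.652%). In the printed sequences, ZNF175 held ACCGGAAGT, ZNF121 held TGACGTCA and AAGATGGCG in reverse complement, and no searched motif matched in ZNF792 or ZNF699. The promoters of the matched genes had a median GC content of 59.6% and 16 CpG dinucleotides, against 58% and 11 over all promoters.

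The transcripts of these genes are poor in GC for their chromosome, and GC content moved with the libraries. Median transcript GC was 45.8% in the 239 genes, against 59.9% in the 940 other protein-coding chromosome 19 genes that met the same read minimum and 46.9% in the 238 ZNF genes on other chromosomes. Of the 31 genes without the KRAB-A-like stretch, 20 were above 55% GC, against 5 of the 207 with it. Library totals ran from 27285773 to 54056289 reads, and 3 reads corresponded to 0.0574 to 0.113 CPM (counts scaled by library size). The second 0 h library stood apart from the other 15. Over 10122 genes, the deviation of its log2 CPM from each gene's mean rose with GC (Pearson r = 0.347), whereas the other libraries had r between −0.192 and 0.206. Its fragment length, read as the gap between transcript length and effective length, was 199 nt, against 210 to 249 nt in the other 15. Each comparison was therefore fitted as counted and again after the GC trend of genes without a ZNF symbol had been removed from every library. The second fit is called GC-corrected hereafter. A gene was called higher or lower where the Benjamini-Hochberg adjusted p of edgeR's quasi-likelihood test, over all 17559 tested genes, was under 0.05, and fold changes are on the log2 scale.

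**Figure D1:**
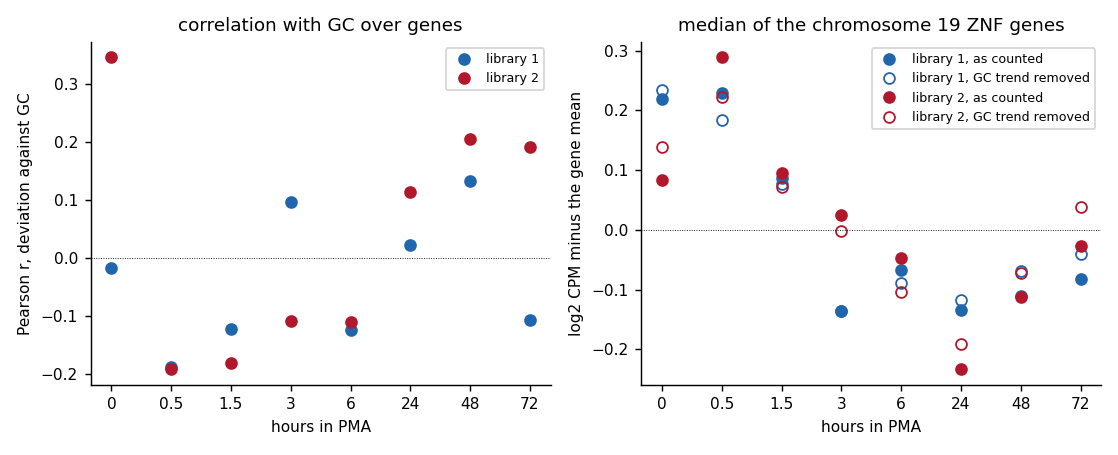
Left, Pearson r between transcript GC and the deviation of log2 CPM from the gene mean, over 10122 genes, for each library by hours in PMA. Right, median deviation of the 239 genes in each library, as counted (filled) and GC-corrected (open). The second 0 h library has the highest r, 0.347, and after correction the medians of the 0 h libraries, 0.234 and 0.139, are above those of all libraries from 3 h on.

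At 0.5 h no member passed the test, and the apparent shift followed GC. The median log2 fold change against 0 h was 0.12 as counted and 0.04 GC-corrected. Across the 239 genes the log2 fold change was correlated with GC at r = −0.687 as counted and −0.0502 after the correction, a description of genes that share libraries and base composition. Of all 17559 tested genes, 0.165% were called higher and 0.00570% lower (0.268% and 0.00570% GC-corrected). At an unadjusted p under 0.05, 59 members passed in edgeR as counted and 30 GC-corrected. The share of all genes at that unadjusted threshold is not given here, so these counts are not read as a result about the members. DESeq2 called 0. The count at 0.5 h turned on which 0 h library was kept. The share of all genes in such fits is not given here, so that count is not read as a result about the members.

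**Figure D2:**
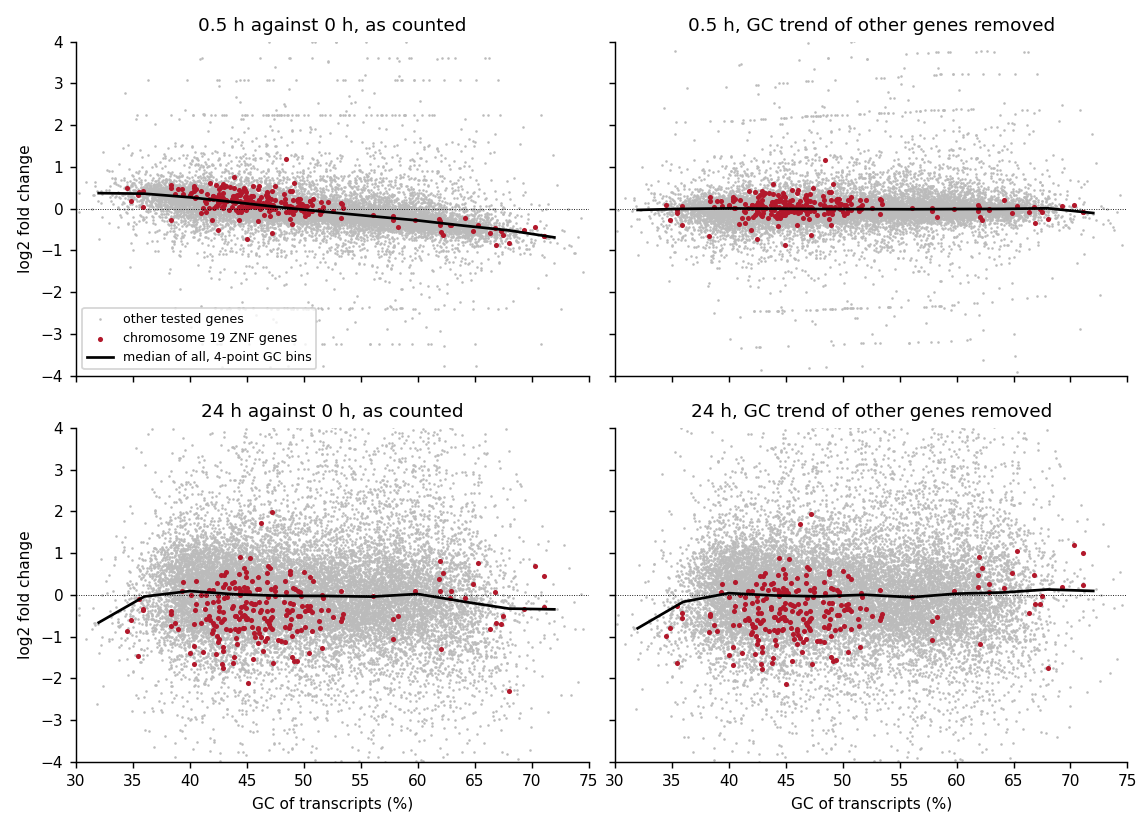
Log2 fold change against 0 h by transcript GC (%) for each tested gene at 0.5 h (top) and 24 h (bottom), as counted (left) and GC-corrected (right). Red points are the 239 chromosome 19 ZNF genes, grey points all other tested genes and the black line the median of all genes in GC bins of at least 20 genes, and points beyond the axis are not drawn. At 0.5 h the genes follow the slope, r = −0.687, which the correction removes, and at 24 h most red points are below 0 in both panels.

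From 3 h to 72 h more members were called lower than higher, and the count of lower calls was highest at 24 h. At 24 h, 110 members fell and 23 rose of 239, with a median log2 fold change of −0.39, while 26.6% of all tested genes fell and 31.7% rose with a median of −0.01. The fallen members were thus 46% of the list and the risen 9.62%. GC-corrected, 122 fell and 31 rose, with a median of −0.40, beside 29.1% and 34.3% of all genes. Within the first and the second libraries taken alone, the 24 h median was −0.36 and −0.35, or −0.29 and −0.35 GC-corrected. Across the 239 genes the 24 h log2 fold change was correlated with GC at r = 0.12 as counted and 0.266 GC-corrected. Members lower in GC thus tended to fall more, also after a correction fitted on other genes. The part of GC in the 24 h split was not tested. Of the called members, 35 were at least 2-fold lower and 2 at least 2-fold higher. The share of all genes at that size is not given here, so this split is not read as particular to the members. Fewer members were called without the second 24 h library.

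At the earlier time points fewer members were called. At 1.5 h, 22 members rose and 28 fell (median −0.06), beside 9.05% and 8.05% of all genes. GC-corrected, 24 rose and 36 fell (median −0.12), beside 9.00% and 6.56%. These 1.5 h counts varied widely with the libraries used. The count as counted fell or rose with the library left out, and 50 calls became 13 in a fit of the compared libraries alone. At 3 h, 78 fell and 25 rose (median −0.27), beside 20.5% and 21.5% of all genes. GC-corrected, 99 fell and 28 rose, beside 22.9% and 23.8%. The 3 h median was −0.40 within the first libraries and −0.04 within the second, or −0.38 and −0.18 GC-corrected, so that in the first libraries the 3 h median was lower than that at 24 h. At 6 h, 90 fell and 33 rose (median −0.27), beside 29.4% and 27.8% of all genes. GC-corrected, 102 fell and 36 rose, beside 31.3% and 29.0%.

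After 24 h the excess of fallen members became smaller. At 48 h, 83 fell and 23 rose (median −0.29), beside 24.1% and 30.2% of all genes. GC-corrected, 92 fell and 31 rose, beside 26.8% and 33.0%. At 72 h, 79 fell and 32 rose (median −0.23), beside 26.9% and 31.7% of all genes. GC-corrected, 91 fell and 39 rose, beside 29.7% and 34.0%. These comparisons share the 0 h libraries, so they are not independent of each other.

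The comparisons that do not use the 0 h libraries gave the middle of the course. From 1.5 h to 6 h, 78 members fell and 27 rose (median −0.17), beside 26.3% and 24.1% of all genes. GC-corrected, 83 fell and 28 rose, beside 28.7% and 26.5%. From 6 h to 72 h, 53 members rose and 39 fell (median 0.00098), beside 31.6% and 25.6% of all genes. GC-corrected, 67 rose and 37 fell, beside 34.0% and 27.4%. In both fits the called share of the members was below that of all genes in each direction. Fewer members were called from 6 h to 72 h without the first 6 h library. Over all time points together, 192 of 239 members (80.3%) changed, beside 82.9% of all genes, and 200 (83.7%) beside 84.2% after GC correction, so these shares are close to the background.

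**Figure D3:**
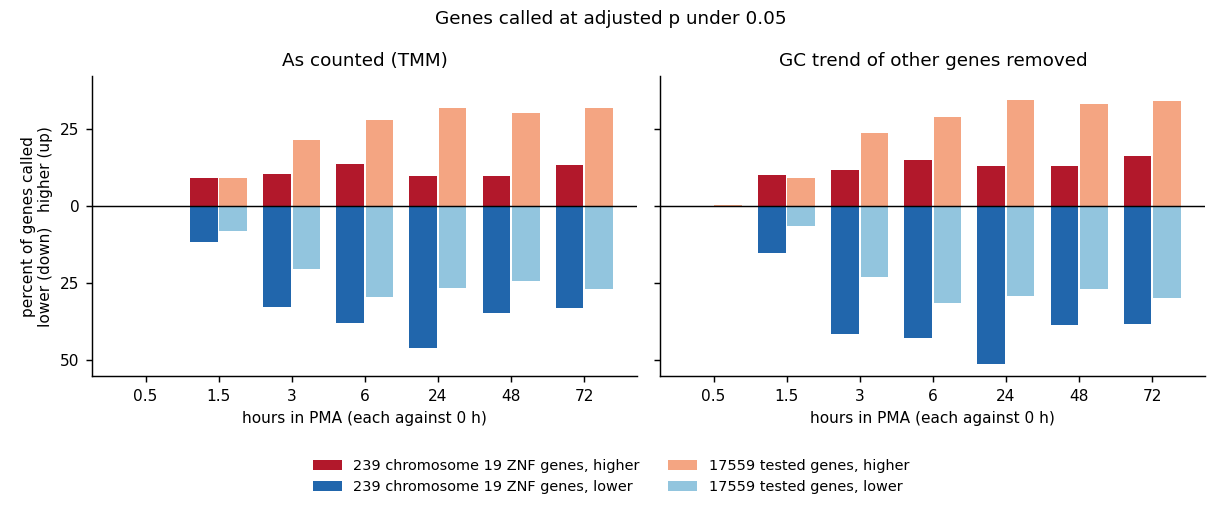
Percent of genes called higher (up) and lower (down) against 0 h at an adjusted p under 0.05, by hours in PMA, for the 239 chromosome 19 ZNF genes (dark bars) and all 17559 tested genes (light bars), as counted (left) and GC-corrected (right). The dark bars reach furthest down at 24 h, 46.0% as counted and 51.0% GC-corrected, against 26.6% and 29.1% of all genes.

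The scaling moved this split. Scaling each library to its total count, in place of TMM, moved the median of all genes by −0.35 at 6 h, −0.26 at 24 h and −0.19 at 72 h. It gave the following counts, each to be read against the share of all genes under the same scaling. At 1.5 h 32 members were lower and 13 higher, beside 14.8% and 6.97% of all genes. At 3 h 128 members were lower and 15 higher, beside 35.5% and 13.4% of all genes. At 6 h 138 members were lower and 14 higher, beside 42.1% and 18.3% of all genes. At 24 h 146 members were lower and 9 higher, beside 37.6% and 23.7% of all genes. At 48 h 115 members were lower and 13 higher, beside 31.9% and 25.4% of all genes. At 72 h 102 members were lower and 17 higher, beside 33.7% and 26.9% of all genes. From 1.5 h to 6 h 111 members were lower and 12 higher, beside 37.0% and 16.6% of all genes. From 6 h to 72 h, where the all-gene median moved by 0.20, 13 members were lower and 80 higher, beside 16.3% and 38.9% of all genes. The members' median at 24 h was −0.64 under total counts, still below the all-gene median of −0.26.

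By the summed level, the members took 0.590% and 0.491% of the matched reads in the 0 h libraries, 0.593% and 0.609% at 0.5 h, 0.410% and 0.492% at 3 h, 0.446% and 0.434% at 6 h, 0.425% and 0.386% at 24 h, and, by 72 h, 0.468% and 0.480%. At 48 h the share was 0.457% and 0.443%. On this scale of all matched reads both libraries at 6 h, 24 h, 48 h and 72 h were below both 0 h libraries. On the TMM scale the members summed to 5178 and 4445 CPM at 0 h, 4675 and 5076 at 3 h, 5038 and 5079 at 6 h, and at 24 h 4385 and 4183. The 3 h and 6 h values thus lay within the range at 0 h and those at 24 h below it. The sums at 48 h, 4497 and 4490 CPM, and at 72 h, 4802 and 4637 CPM, were again within that range. The lowest mean CPM of a gene's 8 time points fell at 24 h in 81 members (33.9%), against 16.3% of all tested genes, and the highest fell at 0.5 h in 87 (36.4%), against 11.4%. GC-corrected, the lowest fell at 24 h in 75 members (31.4%, against 16.3%) and the highest at 0.5 h in 62 (25.9%, against 9.25%).

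The ZNF genes on other chromosomes and the other genes of chromosome 19 divided more evenly at 24 h. Of the 238 ZNF genes elsewhere, 72 fell and 68 rose (median −0.05), or 83 and 80 GC-corrected (median −0.02). Of the 940 other chromosome 19 genes, 290 fell and 260 rose (median −0.16), or 305 and 333 GC-corrected (median −0.05). At 3 h 103 of the 238 ZNF genes elsewhere fell and 44 rose (median −0.26), beside 78 and 25 of the 239 members. The differences between the lists were not tested.

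The excess of fallen genes was seen in the genes with the KRAB-A-like stretch in both fits, and in those without it as counted but not GC-corrected. With the stretch, 99 of 207 fell and 20 rose at 24 h (median −0.41), or 112 and 22 GC-corrected (median −0.44). Without it, 11 of 31 fell and 3 rose (median −0.30), or 10 and 9 GC-corrected (median 0.07). The median GC of the 31 was 62.1%, so their correction is larger than that of the rest. By finger number, at 24 h, GC-corrected, the median was −0.29 in the 63 genes with under 10 fingers, −0.49 in the 103 with 10 to 14 and −0.39 in the 72 with 15 or more. The 126 genes with at most 10% shared words had a 24 h median of −0.36 and the other 113 one of −0.41.

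The clusters in which the genes lie differed widely in their medians. With a gap of over 1 Mb between neighbouring starts as the border, the 239 genes formed 15 clusters, of which 9 held at least 5 genes and 230 genes together. Cluster 5, from 19.7 to 24.1 Mb (GRCh38), held 33 genes, 31 of them with the KRAB-A-like stretch, and is the region of ZNF91, ZNF43 and ZNF93. At 24 h 25 of the 33 fell and 0 rose (median −0.86), or 30 and 0 GC-corrected (median −0.98). Its median was −0.05 at 1.5 h, −0.63 at 6 h and −0.61 at 72 h, GC-corrected, with 24 genes lower and 0 higher at 72 h. Within the first libraries the 24 h median of the cluster was −1.07 and within the second −0.61, and without the second 0 h library it was −1.15.

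Cluster 14, from 51.6 to 53.6 Mb, held 40 genes, all with the KRAB-A-like stretch, and had no common direction. At 24 h 9 of the 40 rose and 8 fell (median −0), or 11 and 10 GC-corrected (median −0.03). At 72 h 13 rose and 5 fell (median 0.11), or 14 and 6 GC-corrected. Under total counts the 24 h split was 4 higher and 11 lower, and the median −0.25, close to the all-gene median of that scaling. Without the second 0 h library, the 24 h median of the cluster was −0.16. The median GC of the cluster, 44.8% (quartiles 43.8% and 46.7%), was above that of cluster 5, 42.3% (quartiles 38.7% and 44.3%). The part of GC in the difference between these clusters was not tested.

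Cluster 2, from 7.1 to 9.8 Mb, held 15 genes, of which 6 rose and 4 fell at 24 h (median 0.09), and 6 rose and 1 fell at 72 h. Its 24 h median was −0.16 under total counts. Cluster counts as counted stand beside 31.7% of all genes higher and 26.6% lower at 24 h, and 31.7% and 26.9% at 72 h. GC-corrected ones stand beside 34.3% and 29.1% at 24 h, and 34.0% and 29.7% at 72 h. The shares as counted are 21.5% and 20.5% at 3 h, and 31.6% and 25.6% from 6 h to 72 h. Cluster 15, from 55.5 to 58.5 Mb at the end of the long arm, held 57 genes, of which 31 fell and 3 rose at 24 h (median −0.47). In cluster 3, from 11.5 to 12.6 Mb with 25 genes, the lowest median came at 3 h (−0.61, 14 lower and 2 higher) and was −0.26 at 24 h. Cluster 11, from 43.5 to 45.1 Mb with 24 genes, had medians of −0.39 at 3 h and −0.09 at 72 h, and 9 of its genes rose from 6 h to 72 h while 1 fell. Cluster 8, from 36.2 to 37.8 Mb with 26 genes, was at −0.06 at 6 h and −0.50 at 24 h, with 14 lower and 2 higher. The small clusters 1 and 7, with 5 genes each, had 24 h medians of −0.92 and −0.61. The differences between clusters were not tested, and neighbours that share sequence are not independent.

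**Figure D4:**
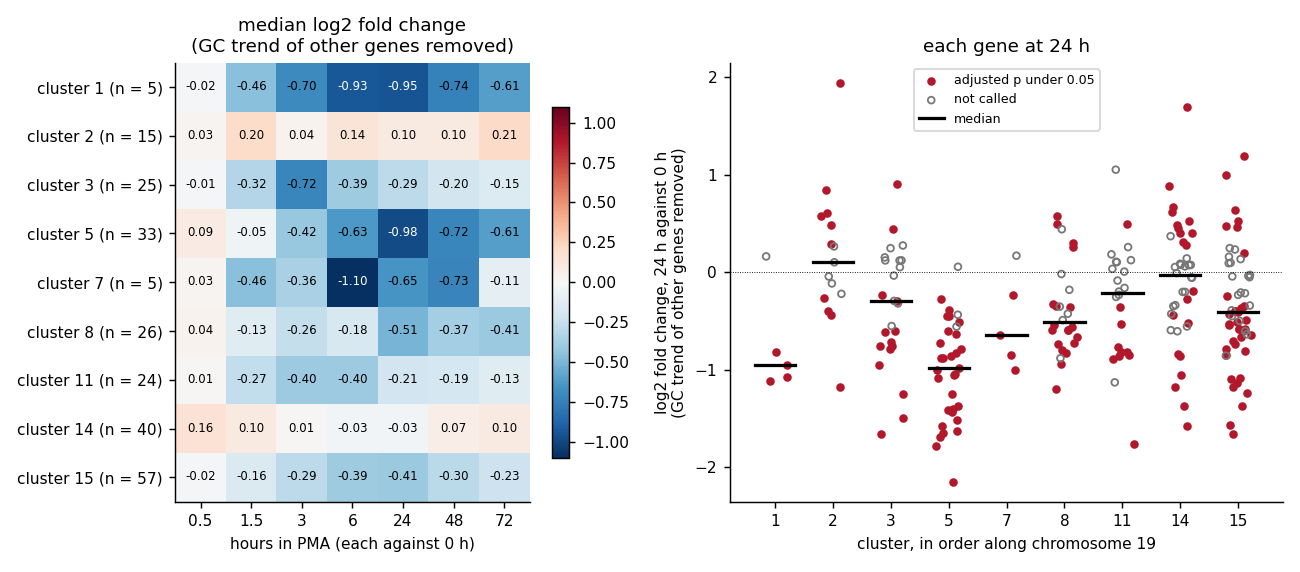
Left, median GC-corrected log2 fold change against 0 h of the 9 clusters with at least 5 genes, by hours in PMA. Right, each gene's GC-corrected log2 fold change at 24 h by cluster, filled where the adjusted p is under 0.05 and open otherwise, with the median as a bar. Cluster 5 is below 0 for 32 of 33 genes with a median of −0.98, and cluster 14 is centred at −0.03.

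ZNF792 (ENSG00000180884, chr19:34956354-34964049, minus strand), a KRAB gene of cluster 7 with 12 fingers, fell furthest at 6 h and then recovered. Its CPM in the first and second libraries was 31.1 and 33.4 at 0 h, 31.3 and 30.3 at 0.5 h, 17.96 and 20.03 at 1.5 h, 3.98 and 3.72 at 3 h, and at 6 h 1.88 and 1.98. It was 27.1 and 26.7 at 24 h, 41.7 and 38.5 at 48 h, and at 72 h 48.2 and 44.2. The groups at 3 h and 6 h lay far below both 0 h libraries, and those at 48 h and 72 h above them. The log2 fold change was −4.06 (SE 0.12, adjusted p = 9.06e-12) at 6 h and 4.58 (SE 0.12, adjusted p = 6.72e-12) from 6 h to 72 h. Only 0.0238% of its 31-base words occurred in transcripts of other genes. Its neighbour ZNF30 (ENSG00000168661, chr19:34926903-34945170, plus strand) had 8.38 and 7.27 CPM at 0 h, 9.88 and 9.32 at 0.5 h, 4.62 and 6.18 at 1.5 h, 1.65 and 1.08 at 3 h, and at 6 h 1.02 and 1.24. It then had 4.91 and 5.31 at 24 h, 4.05 and 4.43 at 48 h, and at 72 h 3.87 and 2.56, so that all libraries from 3 h on were below both 0 h libraries. The ZNF30 log2 fold change was −2.78 (SE 0.26, adjusted p = 5.65e-07) at 6 h and still −1.28 (SE 0.23, adjusted p = 0.000276) at 72 h. The other members of cluster 7, named after their values were seen, were ZNF302, ZNF181 and ZNF599, with log2 fold changes of −0.35, 0.02 and −1.04 at 6 h, of which ZNF599 passed the test.

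ZNF274 (ENSG00000171606, chr19:58183029-58213562, plus strand), which binds the 3′ ends of zinc finger genes and recruits SETDB1 there, rose for some hours and returned. It had 62.3 and 63.8 CPM at 0 h, 64.1 and 64.8 at 0.5 h, 119.6 and 109.5 at 1.5 h, 153 and 137 at 3 h, and at 6 h 118 and 109.8. It then had 63.5 and 55.4 at 24 h, 64.3 and 61.7 at 48 h, and at 72 h 66.4 and 62.9, with libraries on both sides of those at 0 h. The log2 fold change was 0.86 (SE 0.09, adjusted p = 4.45e-05) at 1.5 h, 1.20 (SE 0.09, adjusted p = 2.55e-07) at 3 h and 0.86 (SE 0.09, adjusted p = 2.63e-06) at 6 h. At 24 h it was −0.08 (SE 0.09, adjusted p = 0.447), and total-count scaling gave −0.33 with an adjusted p of 0.01.

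ZNF175 (ENSG00000105497, chr19:51571298-51592508, plus strand), also called OTK18 and studied as a repressor of HIV transcription in macrophages, fell first and rose later. It had 55.9 and 43.8 CPM at 0 h, 59.97 and 60.9 at 0.5 h, 33.1 and 38.6 at 1.5 h, 21.8 and 26.1 at 3 h, and at 6 h 39.6 and 45.3. From 24 h it stood far above every earlier library, at 166 and 164 CPM at 24 h, 143 and 145 at 48 h, and at 72 h 152 and 141. The log2 fold change was −1.06 (SE 0.13, adjusted p = 1.60e-05) at 3 h and 1.73 (SE 0.13, adjusted p = 5.63e-08) at 24 h. The lower value at 1.5 h, −0.48 (SE 0.13, adjusted p = 0.0211), did not pass without the first 0 h or the first 1.5 h library (adjusted p = 0.106 and 0.165) or in the compared libraries alone (adjusted p = 0.139).

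ZNF699 (ENSG00000196110, chr19:9294275-9309838, minus strand), a gene of cluster 2, had the largest rise at 6 h, 24 h and 72 h among the genes eligible to be named. It had 7.703 and 6.598 CPM at 0 h, 7.71 and 7.597 at 0.5 h, 8.57 and 9.84 at 1.5 h, 18.7 and 16.96 at 3 h, and at 6 h 32.6 and 30.9. It then had 29.9 and 26.4 at 24 h, 43.5 and 41.02 at 48 h, and at 72 h 58.6 and 47.01. All libraries from 3 h on were above both 0 h libraries. The log2 fold change was 2.15 (SE 0.14, adjusted p = 1.05e-08) at 6 h and 2.88 (SE 0.14, adjusted p = 5.30e-10) at 72 h. ZNF432 (ENSG00000256087, chr19:52031379-52095738, minus strand) of cluster 14 rose early, with 16.9 and 11.3 CPM at 0 h, 18.1 and 17.9 at 0.5 h, 37.7 and 34.4 at 1.5 h, 55.4 and 63.02 at 3 h, 46.7 and 46.6 at 6 h, 27.9 and 24.9 at 24 h, 33.6 and 30.03 at 48 h, and at 72 h 45.1 and 45.2. Its log2 fold change was 1.36 (SE 0.15, adjusted p = 5.23e-05) at 1.5 h, 2.07 (SE 0.15, adjusted p = 1.34e-07) at 3 h and 1.68 (SE 0.15, adjusted p = 3.84e-07) at 72 h. ZNF432 overlaps ZNF841, named for that reason, which had a log2 fold change of 1.48 at 6 h, and reads where the genes overlap cannot be told apart.

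ZNF480 (ENSG00000198464, chr19:52297177-52325922, plus strand), also of cluster 14, rose and then fell below its starting level. It had 25.9 and 18.1 CPM at 0 h, 31.5 and 33 at 0.5 h, 50.6 and 54.9 at 1.5 h, and at 3 h 41.1 and 45.8. It then had 11.1 and 12.4 at 6 h, 7.29 and 7.76 at 24 h, 11.3 and 12.1 at 48 h, and at 72 h 16.1 and 13.5. The log2 fold change was 1.26 (SE 0.15, adjusted p = 8.68e-05) at 1.5 h and −1.55 (SE 0.15, adjusted p = 1.36e-06) at 24 h. The largest falls at 1.5 h were those of ZNF57 (ENSG00000171970, chr19:2900898-2918476, plus strand) and ZNF799 (ENSG00000196466, chr19:12390016-12401271, minus strand). ZNF57 went from 7.55 and 7.95 CPM to 3.33 and 4.13, which is a fitted log2 change of −1.05 (SE 0.20, adjusted p = 0.00334). ZNF799 went from 11.2 and 8.27 CPM to 5.098 and 4.37, which is a fitted log2 change of −1.04 (SE 0.17, adjusted p = 0.0011). ZNF799 shares 30.1% of its words with other genes, and its change did not pass with length-scaled TPM (adjusted p = 0.143).

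**Figure D5:**
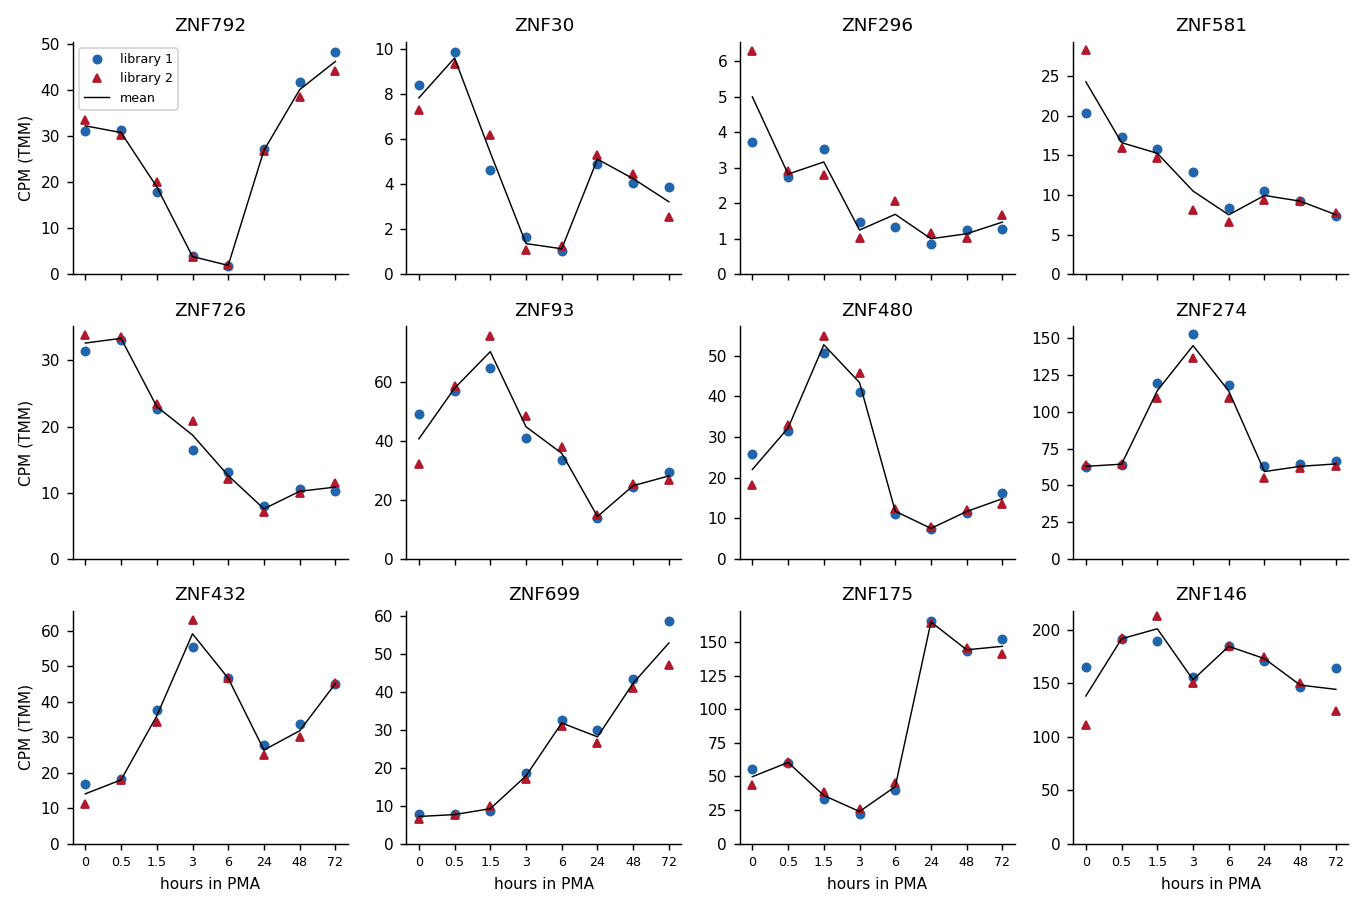
CPM of 12 chromosome 19 ZNF genes in each library by hours in PMA (time points evenly spaced), with circles and triangles for the first and second libraries and a line through the means. ZNF792 is near 2 CPM at 6 h and above 38 CPM at 48 h and 72 h, ZNF274 peaks at 3 h, and ZNF175 is above 140 CPM from 24 h.

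Of the transposable element repressors, ZNF93 (ENSG00000184635, chr19:19900913-19963464, plus strand), which silences LINE-1 elements, rose at 1.5 h and fell at 24 h. It had 49.2 and 32.4 CPM at 0 h, 57.2 and 58.8 at 0.5 h, 64.9 and 75.9 at 1.5 h, and at 3 h 41.1 and 48.6. It then had 33.7 and 38.1 at 6 h, 13.8 and 15.1 at 24 h, 24.4 and 25.4 at 48 h, and at 72 h 29.5 and 26.9. The 0 h libraries differ widely, and the 24 h libraries are well below both. The log2 fold change was 0.79 (SE 0.16, adjusted p = 0.00528) at 1.5 h and −1.50 (SE 0.17, adjusted p = 3.82e-06) at 24 h. The 1.5 h value did not pass with length-scaled TPM (0.36, adjusted p = 0.0795), in the compared libraries alone (adjusted p = 0.076) or without the second 1.5 h library (adjusted p = 0.0632). The value at 72 h, −0.53 (SE 0.16, adjusted p = 0.0116), did not pass without the first 0 h library (log2 fold change −0.20) or the second 72 h library (−0.46). ZNF91 (ENSG00000167232, chr19:23304991-23395560, minus strand), a repressor of SVA elements, had 26.9 and 15.6 CPM at 0 h, 17.6 and 20.6 at 6 h, 16.6 and 15.8 at 24 h, and at 72 h 20.6 and 19.1. Of the ZNF91 comparisons with 0 h, the one at 48 h passed as counted, with a log2 fold change of −0.56 (SE 0.19, adjusted p = 0.0216). Its log2 fold change of −0.39 (SE 0.19, adjusted p = 0.0861) at 24 h became −0.45 (adjusted p = 0.00415) GC-corrected. The ZNF91 value at 72 h turned on the 0 h library used: it was −0.10 with both, 0.35 (adjusted p = 0.0437) without the first and −0.44 (adjusted p = 0.0121) without the second. In the same cluster, ZNF726 (ENSG00000213967, chr19:23914876-23945159, plus strand) fell from 31.4 and 33.8 CPM at 0 h to 13.1 and 12.1 at 6 h, 8.07 and 7.08 at 24 h, and at 72 h 10.2 and 11.5, which is a fitted log2 change of −2.11 (SE 0.13, adjusted p = 8.81e-09) at 24 h.

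ZNF296 (ENSG00000170684, chr19:45071500-45076588, minus strand) and ZNF581 (ENSG00000171425, chr19:55635459-55645622, plus strand) lack the KRAB-A-like stretch and are rich in GC, at 68.03% and 62.1%. ZNF296 had 3.71 and 6.28 CPM at 0 h, 1.32 and 2.05 at 6 h, 0.839 and 1.16 at 24 h, and at 72 h 1.28 and 1.66. It fell at 24 h, with a log2 fold change of −2.29 (SE 0.31, adjusted p = 2.63e-05), which was −1.76 (adjusted p = 1.87e-05) GC-corrected. At 6 h it was −1.55 as counted and −0.91 GC-corrected. ZNF581 had 20.3 and 28.2 CPM at 0 h, and at 72 h 7.301 and 7.72, which is a fitted log2 change of −1.69 (SE 0.21, adjusted p = 9.04e-06), or −1.54 GC-corrected. ZNF581 overlaps CCDC106 and ZNF580.

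The genes at the highest mean TPM had fitted changes of under 2-fold in the comparisons given here. ZNF146 (ENSG00000167635, chr19:36214602-36238774, plus strand, mean 102 TPM), which consists almost only of fingers, had 165 and 111 CPM at 0 h, 189 and 212 at 1.5 h, and at 72 h 164 and 124. Its log2 fold change was 0.54 (SE 0.16, adjusted p = 0.031) at 1.5 h, 0.42 (SE 0.16, adjusted p = 0.034) at 6 h and 0.06 (SE 0.16, adjusted p = 0.746) at 72 h. Without the second 0 h library the 1.5 h and 6 h values were 0.28 and 0.16 and did not pass (adjusted p = 0.294 and 0.361), and under total counts they were 0.45 and 0.05 (adjusted p = 0.0544 and 0.814). Neither passed in the compared libraries alone (adjusted p = 0.15 and 0.0844). At 24 h ZNF146 was at 0.32 (SE 0.16, adjusted p = 0.0885), and GC-corrected at 0.30 (adjusted p = 0.0102). ZNF83 (ENSG00000167766, chr19:52594060-52690496, minus strand, mean 89.5 TPM) had 73.7 and 53.2 CPM at 0 h, and at 6 h 98.98 and 109, a fitted log2 change of 0.71 (SE 0.13, adjusted p = 0.000405) that did not pass under total counts (0.34, adjusted p = 0.0745). At 72 h its 0.40 (SE 0.13, adjusted p = 0.019) did not pass without the second 0 h library (0.19, adjusted p = 0.207) or the second 72 h library (0.35, adjusted p = 0.0835) or under total counts (0.24, adjusted p = 0.191) or in the compared libraries alone (adjusted p = 0.165). ZNF121 (ENSG00000197961, chr19:9560353-9584533, minus strand, mean 75.4 TPM) had 232 and 171 CPM at 0 h, 316 and 291 at 3 h, and at 24 h 177 and 167. Its log2 fold change at 6 h, 0.51 (SE 0.14, adjusted p = 0.00657), did not pass without the second 0 h library (0.30, adjusted p = 0.0852), without the first 6 h library (0.46, adjusted p = 0.0576) or under total counts (0.14).

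Other members with a studied role moved in different ways. ZNF331 (ENSG00000130844, chr19:53519527-53580269, plus strand), an imprinted gene, fell late, with 12.6 and 12.7 CPM at 0 h, 12.7 and 11.8 at 0.5 h, 12.3 and 10.02 at 1.5 h, and at 3 h 8.91 and 11.6. From 6 h to 72 h its values were 11.3 and 11.8 at 6 h, 5.62 and 4.05 at 24 h, 6.37 and 5.38 at 48 h, and at 72 h 4.96 and 6.25. The ZNF331 log2 fold change was −1.40 (SE 0.19, adjusted p = 2.87e-05) at 24 h and −1.17 (SE 0.19, adjusted p = 0.00012) at 72 h. ZNF420 (Apak), known as a negative regulator of p53, had 9.61 and 7.27 CPM at 0 h, 2.77 and 3.65 at 3 h, and at 72 h 5.43 and 4.72. The fitted log2 change was −1.40 (SE 0.18, adjusted p = 3.26e-05) at 3 h and −0.73 (SE 0.18, adjusted p = 0.00274) at 72 h. The ZNF420 value at 24 h, −0.51 (SE 0.17, adjusted p = 0.0228), did not pass without the first 0 h library or either 24 h library (adjusted p = 0.0687 to 0.235). ZNF568, whose mouse counterpart restrains placental Igf2, had 4.08 and 4.02 CPM at 0 h, and at 72 h 1.81 and 2.72, which is a fitted log2 change of −0.84 (SE 0.24, adjusted p = 0.00779). That ZNF568 value did not pass without the first 72 h library (adjusted p = 0.0899), nor did the 24 h value, −0.77 (SE 0.24, adjusted p = 0.0127), without the second 24 h library (adjusted p = 0.112) or with length-scaled TPM (adjusted p = 0.115). ZNF224, a repressor of the aldolase A gene, had 20.4 and 17.99 CPM at 0 h, 13 and 15.5 at 3 h, and at 72 h 24.5 and 23.9. At 6 h ZNF224 was not called as counted. It was called lower at 6 h GC-corrected (−0.33, adjusted p = 0.00462), under total counts (−0.56, adjusted p = 0.00259) and with length-scaled TPM (−0.37, adjusted p = 0.0326). Its log2 fold change at 72 h was 0.33 (SE 0.11, adjusted p = 0.0191) and did not pass without the second 0 h library (0.24, adjusted p = 0.135), without the first 72 h library (0.32, adjusted p = 0.0631), under total counts (0.17, adjusted p = 0.272) with length-scaled TPM (0.03, adjusted p = 0.869) or in the compared libraries alone (adjusted p = 0.235). ZNF350 (ZBRK1), a partner of BRCA1, had 5.62 and 3.96 CPM at 0 h, and at 72 h 5.74 and 5.53, with no comparison with 0 h past the threshold at 1.5 h, 6 h, 24 h or 72 h. Without the first 0 h library ZNF350 passed at 1.5 h (0.75, adjusted p = 0.0153) and at 72 h (0.51, adjusted p = 0.0441).

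The genes of the proteins with which KRAB zinc finger proteins act showed no common direction at 6 h or 72 h, and more rose than fell at 24 h. Of 25 listed co-repressor genes, all tested, 8 rose and 5 fell at 6 h (median 0.09), and 7 rose and 7 fell at 72 h (median 0.15). These shares, 32% and 20% at 6 h and 28% and 28% at 72 h, are near the 27.8% and 29.4%, and 31.7% and 26.9%, of all genes. GC-corrected, the counts were 8 and 8 at 6 h and 9 and 8 at 72 h. At 24 h 10 rose and 4 fell (median 0.05), or 40% and 16%, beside 31.7% and 26.6% of all genes. GC-corrected, 11 rose and 6 fell at 24 h, or 44% and 24%, beside 34.3% and 29.1%. At 3 h and at 48 h 9 rose and 5 fell (36% and 20%), beside 21.5% and 20.5%, and 30.2% and 24.1%, of all genes. These differences from all genes were not tested. TRIM28, the scaffold itself, had a mean of 441 CPM and log2 fold changes of −0.10 (SE 0.15, adjusted p = 0.602) at 6 h and −0.29 (SE 0.15, adjusted p = 0.126) at 72 h. SETDB1 fell at both times, its fitted log2 changes being −0.57 (SE 0.08, adjusted p = 2.85e-05) at 6 h and −0.73 (SE 0.08, adjusted p = 2.72e-06) at 72 h. CBX1, a heterochromatin protein 1, had the largest fall at 6 h, −0.83 (SE 0.11, adjusted p = 1.33e-05). At 72 h the largest rise was that of CBX5, another heterochromatin protein 1, 1.15 (SE 0.10, adjusted p = 4.66e-07), and the largest fall that of CHD3, −0.77 (SE 0.09, adjusted p = 6.37e-06). CHD4, a NuRD remodeller and the most abundant of the list at 1004 CPM, rose at both times, by 0.98 (SE 0.10, adjusted p = 1.13e-06) and 1.12 (SE 0.10, adjusted p = 3.30e-07).

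Defining markers of K562 cells were present in every library. All 8 K562 and erythroid markers were above 1 TPM, and their summed level was 2300 to 5210 TPM, mostly globin. Within that list GATA1 had a mean of 148 TPM at 0 h, 8.89 at 6 h, and at 72 h 158, while KLF1 had 54.6, 1.14 and 3.13 TPM in the same order. The 6 megakaryocyte markers summed to 47.3 and 80.4 TPM at 0 h and to 1820 and 1840 TPM at 72 h, with VWF at most at 0.654 TPM. That sum was carried by THBS1 (mean 1.09 TPM at 0 h and 1230 at 72 h) and ITGB3 (0.661 and 457), while ITGA2B was at 38.4 at 0 h, 7.49 at 24 h, and at 72 h 43.3. Of other cell types, CD2 was at 0 in 12 libraries and MS4A1 in 15, CD3E was at most 0.4 TPM and CD14 at most 0.654 TPM. CD3D summed with CD3E and CD2 was 14.2 to 72.5 TPM, the monocyte list 42.5 to 92.4 TPM, mostly LYZ, and the fibroblast list rose from 8.49 and 8.8 TPM at 0 h to 74.4 and 108 TPM at 72 h, mostly COL1A1. The B cell list summed to 1.42 to 3.62 TPM. The part of these changes in the levels of the ZNF genes was not tested, and fewer cells of a kind cannot be told apart from less RNA per cell.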

How the data were processed

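RNA after ribosomal RNA depletion was sequenced from 16 libraries, 2 at each of 8 time points. The deposited tables hold, per transcript, estimated counts and TPM, and the submitters' processing notes name Salmon with no version beside Trim Galore 0.4.3. The notes also name the hg19 and hg38 builds with no role, and the annotation behind the tables is not given in the sources used here. The TPM values are the authors' own and correct for transcript length. The estimated counts deposited by the authors can divide reads between related genes, and here their sum over each gene's transcripts was rounded to an integer.

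Transcripts were matched by identifier to GENCODE v29 (GRCh38), which named 167027 of 177456 (94.12%) and took in all but 3.01 to 3.75% of the reads. Library totals of 27285773 to 54056289 reads set the counting precision. edgeR 4.0.16 (R 4.3.3) fitted its quasi-likelihood model to all 16 libraries, with TMM scaling, filterByExpr and no replicate block, over 17559 genes. CPM values are TMM-scaled. The GC-corrected fit added an offset per library, a natural spline with 5 degrees of freedom of log2 CPM deviation on transcript GC, fitted on genes without a ZNF symbol. The fits were tested on simulated data. Alternatives were DESeq2 1.42.0, its size factors, total counts, length-scaled TPM, a GC trend over all genes, other filters, the groups compared alone, a replicate block and leaving out each library.

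Genes were named by a rule. At 1.5 h, 6 h, 24 h and 72 h it took the 2 largest rises and 2 largest falls among members called in both fits, with a mean of at least 2 CPM and both libraries on 1 side of both 0 h libraries. It added the 3 members highest in TPM and 11 listed members with a studied role. Co-repressors were named for the largest rise and fall at 6 h and 72 h and for the highest level. One gene that this rule takes is not reported here. TRIM28, SETDB1, cluster 7's other genes, ZNF841, ZNF43 and the genes at the extremes of finger number and of the read minimum were named after their values were seen. The members and lists were chosen with earlier results of these data known. KRAB-A-like stretches and fingers were counted in translations of GENCODE v29 coding sequences, and promoters came from RefSeq (GRCh38.p14).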

Additional observations from a re-analysis of the deposited data

Results flagged for a closer look

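Among the named members, 4 genes were flagged for a change against 0 h that differed between 6 h and 72 h. The test was edgeR's of 72 h against 6 h, which does not use the 0 h libraries. ZNF792 and ZNF30 were named for their falls at 6 h. For them the test uses the 6 h libraries by which they were chosen, so it is not independent of that choice. The 4 are not all the named members that moved between these times: ZNF699 had 32.6 and 30.9 CPM at 6 h and 58.6 and 47.01 at 72 h. ZNF792 differed by a log2 fold change of 4.58 (SE 0.12, adjusted p = 6.72e-12), from −4.06 at 6 h to 0.52 at 72 h, and by 4.60 GC-corrected. ZNF175 differed by 1.79 (SE 0.13, adjusted p = 5.73e-08), from −0.23 to 1.56, and by 1.86 GC-corrected. ZNF30 differed by 1.50 (adjusted p = 0.000266), from −2.78 to −1.28, and by 1.58 GC-corrected. ZNF331 differed by −1.05 (adjusted p = 0.000368), from −0.13 to −1.17, and by −1.02 GC-corrected. All 4 directions hold in both libraries of each time point. The medium had been renewed before 72 h and not before 6 h, and its part in these differences cannot be told apart from that of time.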

How the results depend on the processing

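Of 171 counts of called members recomputed under an alternative, 162 stayed within 1.5 times the main count. Counts under an alternative stand in this section without the share of all genes in the same fit, so they describe the processing only. At 0.5 h, 0 calls became 28 with no low-count filter, and 0 to 67 with 1 library left out. At 1.5 h, 50 calls became 13 in the compared libraries alone, and 16 to 73 with 1 library left out. With 1 library left out, the 133 calls at 24 h became 83 to 118 and the 92 from 6 h to 72 h became 60 to 101. At 72 h, 111 calls became 68 in the compared libraries alone. The members' median stayed below 0 in each alternative at 24 h (−0.64 to −0.32), 6 h (−0.64 to −0.13) and 72 h (−0.38 to −0.17), and from 6 h to 72 h it ran from −0.05 to 0.21. ZNF91 at 72 h turned from −0.10 to 0.35 without the first 0 h library and −0.44 without the second. The other named values gave 999 same calls, 44 lost and 60 gained. Same-numbered libraries deviated together (r over 0.1) in 23 of the 28 pairs of time points, not in the other 5, of which 2 had r under −0.1 (r from −0.302 to 0.589). Pairing was taken only where every pair had r over 0.1, so a partly shared source by number was not modelled in the main test. The replicate block gave 125 calls at 6 h, 137 at 24 h and 117 at 72 h, or 142, 156 and 137 GC-corrected. An alternative added after seeing the data, GC-corrected without the second 0 h library, gave 130, 126 and 108. The causes of these shifts were not tested. Depth limits the genes near 10 reads per library most.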
